A study of Mus musculus and Mus musculus musculus x Mus musculus castaneus with 8 samples.

Results

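Shared somatic sites kept only in control transfer were defined as donor mouse embryonic fibroblast (MEF) peaks that overlapped, by at least 1 bp, an ATAC-seq peak of C2C12 cells (50000 cells) and a peak of MEFs 48 h after nuclear transfer (NT), but no peak of NT oocytes that overexpressed Toca1/Fnbp1l. Of 39592 donor peaks, 879 met this rule (2.22%). They were thus chosen by the presence or absence of a called peak in these 4 lists. ATAC-seq marks open chromatin by letting the Tn5 transposase insert adaptors into accessible DNA. C2C12 is a mouse myoblast line, labelled as strain C3h. The MEFs came from embryos of a cross with the castaneus subspecies, were permeabilized, and were analysed from 3000 cells a library, before NT and 48 h after transplantation into Xenopus oocytes with or without Toca1 overexpression. Each NT library pooled the transplanted nuclei of several oocytes, which also hold frog chromatin. The libraries of 1000 C2C12 cells were amplified without purifying the transposed DNA. The 8 libraries of 5 conditions (2 of C2C12 from 50000 cells, 2 of C2C12 from 1000 cells, 1 of donor MEFs, 2 after NT and 1 after NT with Toca1) were deposited as 1 peak list per condition, with positions in mm9. The lists give neither read numbers nor peak heights, so the depth is unknown, no spread between replicates can be given, and an absent peak means only that no call passed a false discovery rate of 0.01. They hold positions only, so the cell types could not be checked against marker genes.

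An open site is a stretch of DNA with few or no stable nucleosomes, most often a promoter, an enhancer or an insulator. Promoters of broadly expressed genes are open in most cell types, whereas enhancers differ more between them. In the oocyte germinal vesicle, transplanted nuclei swell, exchange much of their chromatin protein for oocyte protein and change their transcription without dividing. Toca1, the product of Fnbp1l, is a membrane-binding adaptor that activates actin nucleation through N-WASP and the Arp2/3 complex. The comparison asks which open sites common to these somatic cells were called after ordinary NT but not when Toca1 was overexpressed.

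Some of the sites could be tied to genes. Gene starts were placed in mm9 from the study's own assignments of newly opened peaks to their closest start, which cover part of the genome. Each nonzero distance was measured off on both sides of its peak, so each pair holds a position that is not the listed start. A match to either side was counted, so some placements may be false. In this way 38 of the 879 sites lay within 500 bp of a placed start. At 27 of them the placed start lay inside the donor peak. The 38 genes had 38 matches by name in the RefSeq gene table of GRCm38.p6, and 36 of them are protein coding. Their chromosomes match because each position was placed on the chromosome of its listed peak. The placed positions were not compared with RefSeq coordinates. The bases upstream of 6 of the 27 starts are printed, for genes placed at sites called after control NT but not with Toca1. Whether these bases themselves lay under a peak after NT was not checked. They were chosen, after the values were seen, for genes of known function and a range of motif content. They are taken 5′ to 3′ on the gene's strand from RefSeq promoters (GRCm38.p6), 250 bases up to the start, at chr13:93499809-93500058 (minus strand, Jmy), chr12:17266339-17266588 (plus, Pdia6), chr9:96478676-96478925 (minus, Rnf7), chr2:104590234-104590483 (plus, Cstf3), chr15:83251730-83251979 (minus, A4galt) and chr4:136053394-136053643 (minus, Rpl11). Capitals mark matches on either strand to 7 motifs. The GC box, bound by Sp1 and its relatives, was searched as GGGCGG. The motif of the factor NF-Y was searched as CCAAT. The TATA box, which positions the polymerase at some promoters, was searched as TATAAA. The core of sites for the ETS family was searched as CCGGAA. Part of the NRF1 site was searched as GCATGCG. The AP-1 site, bound by Fos and Jun proteins, was searched as TGAGTCA. Part of the cAMP response element, bound by CREB, was searched as TGACGT.
Jmy: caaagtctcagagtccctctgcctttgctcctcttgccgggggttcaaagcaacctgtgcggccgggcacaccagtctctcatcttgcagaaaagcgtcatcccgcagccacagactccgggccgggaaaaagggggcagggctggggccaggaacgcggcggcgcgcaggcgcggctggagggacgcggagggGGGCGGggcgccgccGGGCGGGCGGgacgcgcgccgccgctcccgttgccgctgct
Pdia6: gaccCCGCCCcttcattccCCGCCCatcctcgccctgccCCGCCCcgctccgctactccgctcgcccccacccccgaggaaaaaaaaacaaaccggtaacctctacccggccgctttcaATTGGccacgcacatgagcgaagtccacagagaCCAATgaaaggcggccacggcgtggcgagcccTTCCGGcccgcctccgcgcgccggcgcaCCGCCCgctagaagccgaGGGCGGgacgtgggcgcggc
Rnf7: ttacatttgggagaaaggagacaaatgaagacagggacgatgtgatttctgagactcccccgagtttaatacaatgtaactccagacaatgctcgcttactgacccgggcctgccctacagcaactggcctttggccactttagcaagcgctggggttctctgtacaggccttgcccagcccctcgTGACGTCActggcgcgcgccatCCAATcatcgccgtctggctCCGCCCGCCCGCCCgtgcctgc
Cstf3: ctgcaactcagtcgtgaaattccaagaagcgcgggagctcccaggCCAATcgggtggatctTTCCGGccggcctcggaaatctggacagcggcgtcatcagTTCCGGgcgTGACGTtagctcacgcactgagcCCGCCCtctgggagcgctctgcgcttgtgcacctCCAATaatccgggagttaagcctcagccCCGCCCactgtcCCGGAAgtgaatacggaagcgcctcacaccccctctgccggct
A4galt: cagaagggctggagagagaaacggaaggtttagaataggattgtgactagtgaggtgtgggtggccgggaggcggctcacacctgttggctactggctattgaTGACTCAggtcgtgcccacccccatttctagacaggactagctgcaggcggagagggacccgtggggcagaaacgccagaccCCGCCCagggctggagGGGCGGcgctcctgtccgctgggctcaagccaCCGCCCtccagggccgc
Rpl11: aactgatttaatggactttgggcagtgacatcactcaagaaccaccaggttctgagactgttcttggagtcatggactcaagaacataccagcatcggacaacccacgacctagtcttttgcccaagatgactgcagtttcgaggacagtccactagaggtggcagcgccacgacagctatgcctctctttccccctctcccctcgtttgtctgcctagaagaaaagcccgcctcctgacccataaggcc
The RefSeq start may differ from the one the study used. In Jmy, an actin nucleator and p300 cofactor, the capitals are 3 GC boxes, of which the last 2 overlap. Pdia6, a protein disulfide isomerase of the endoplasmic reticulum, had 5 GC boxes, 2 CCAAT boxes and 1 ETS core. Rnf7, the RING subunit of cullin ubiquitin ligases, had 3 overlapping GC boxes, 1 CCAAT box and a palindromic cAMP response element, which is why TGACGT was found there on both strands. Cstf3, a subunit of the factor that cleaves pre-mRNA at the polyadenylation site, had 3 ETS cores, 2 GC boxes, 2 CCAAT boxes and 1 match to TGACGT. A4galt, the enzyme that makes the glycolipid Gb3, had 3 GC boxes and 1 AP-1 site. The window of Rpl11, a protein of the large ribosomal subunit, held none of these letters.

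Over all 20 of the 27 genes that have a single start in the promoter table, 16 windows (80.0%) held a GC box, against 32.4% of the 22862 single-start promoters of the table. An ETS core was found in 5 windows (25.0%) against 12.2% of all promoters, and a CCAAT box in 7 (35.0%) against 34.7%. TATAAA was found in 3 (15.0%) against 13.6%. An AP-1 site was in 1 window (5.00%) against 4.47%, TGACGT in 2 (10.0%) against 6.51%, and GCATGCG in 0 against 3.04%. The median share of C and G was 62.0% (95% interval 54.0% to 64.0%) against 52.0% in all promoters, and the median ratio of observed to expected CpG was 0.761 against 0.363. The 147 single-start promoters placed inside peaks of all 4 lists had a GC box in 72.8%, an ETS core in 25.9%, C and G at 65.2% and a CpG ratio of 0.806. A CCAAT box was in 50.3% of them (95% Wilson interval 42.4% to 58.3%). The interval for the 20 promoters of the control-only sites was 18.1% to 56.7%, so a difference was not detectable with this number. TATAAA was in 5.44% of the 147 promoters of all 4 lists (interval 2.78% to 10.4%). Its interval for the 20 promoters of the control-only sites was 5.24% to 36.0%, so the intervals overlapped.

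Of the 39592 donor peaks, 64.6% overlapped a C2C12 peak from 50000 cells, 9.73% a peak after control NT and 19.7% a Toca1 peak. The 25562 donor peaks shared with C2C12 cells fell into 2693 found in all 4 lists, 879 found after control NT only, 4475 found with Toca1 only and 17515 found in neither NT list. Of the 3572 shared sites kept after control NT, 24.6% (interval 23.2% to 26.0%) had thus no Toca1 peak, although the Toca1 list is the larger of the NT lists. Among the 282 donor peaks that were kept after control NT but had no C2C12 peak, 170 (60.3%, interval 54.5% to 65.8%) had no Toca1 peak. Retained sites without a C2C12 peak thus lacked a Toca1 peak more often than those with one. Intervals here and below cover counting error over peaks only and not variation between experiments. With 1 library of Toca1 oocytes, the treatment, the library and its depth cannot be told apart.

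The rule is a threshold of 1 bp. Just inside it, the site at chr19:5912509-5913054 lay 4 bp from a Toca1 peak, the site at chr10:61158052-61158385 lay 17 bp away and the site at chr1:60466196-60466723 lay 19 bp away. Just outside it, donor peaks at chr9:40538704-40539155, chr11:19825368-19826183 and chr7:112630420-112631269 overlapped a Toca1 peak by 2, 3 and 4 bp and were counted among the sites of all 4 lists. The smallest overlaps of a member's donor peak with its peak after NT were 6 bp on chromosome 13, 7 bp on chromosome 14 and 8 bp on chromosome 18.

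Sites kept only in control transfer had narrower peaks than those found in all 4 lists. Widths come from the lists that chose the sites and are given as a description. The peak after control NT had a median width of 326 bp (quartiles 238 and 430 bp, range 150 to 1067 bp) at control-only sites and of 417 bp at sites of all 4 lists, a difference of -91 bp. The donor MEF peak was 493 bp wide in the median (quartiles 382 and 637 bp) against 578 bp, and the C2C12 peak 582 bp (quartiles 431 and 804 bp) against 772 bp. The difference in bp was the largest of the 3 in the C2C12 list (-190 bp), whose cells were not transplanted. On each of the 20 chromosomes the median widths of the donor peak and of the peak after NT were lower for control-only sites. The distributions overlapped over most of their range, as the plot of cumulative widths shows.

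**Figure D1:**
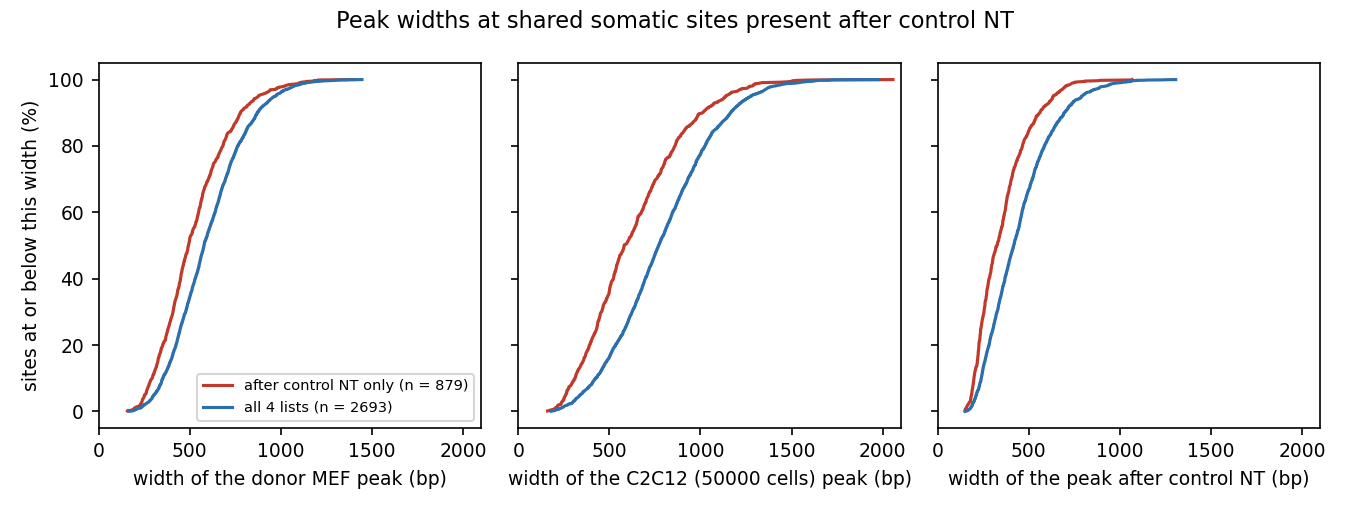
Cumulative share of sites (y axis, %) at or below a given peak width (x axis, bp) for the donor MEF peak, the C2C12 peak from 50000 cells and the peak after control NT. The curves of the 879 control-only sites lie to the left of those of the 2693 sites of all 4 lists in each panel, with medians of 493 against 578 bp, 582 against 772 bp and 326 against 417 bp.

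The share of retained shared sites that lacked a Toca1 peak fell with width. Among the narrowest 10% of the peaks after NT (150 to 225 bp), 170 of 358 sites (47.5%, interval 42.4% to 52.7%) were absent from the Toca1 list. Among the widest 10% (669 to 1306 bp), 32 of 358 were (8.94%, interval 6.40% to 12.3%). Split by the width of the donor peak the shares went from 42.2% to 14.0%. A wider donor peak more easily meets a Toca1 peak by 1 bp, so the rule itself may set part of this decline. The shares are given as a description. The decline by peak width after NT was not even, with 21.0% in the fourth class and 28.9% in the fifth.

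**Figure D2:**
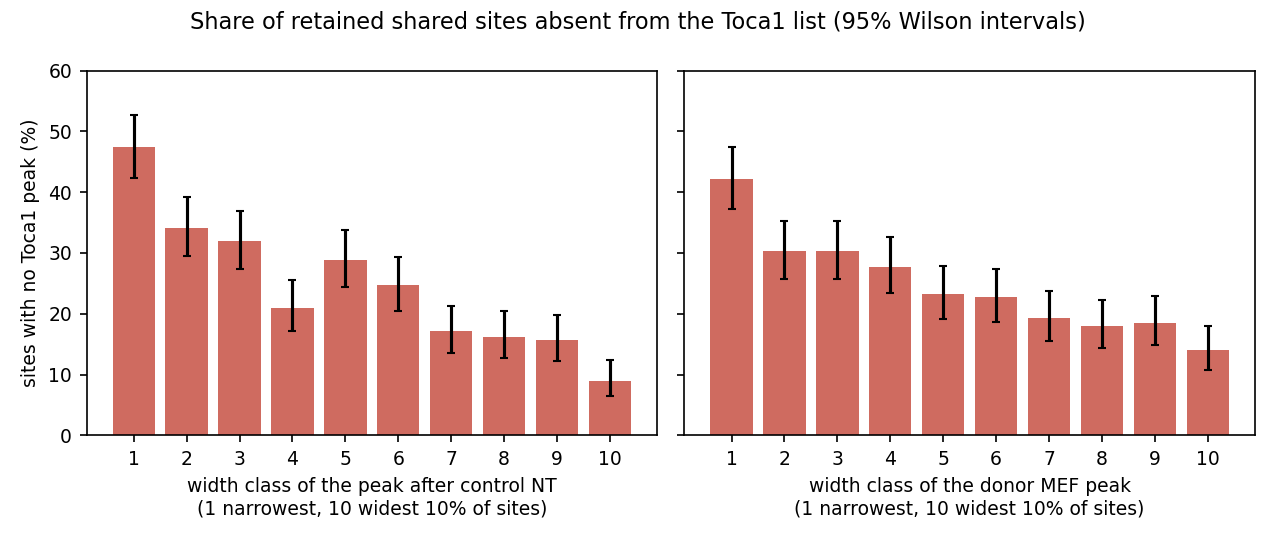
Share of shared sites kept after control NT that had no Toca1 peak (y axis, %) in 10 classes of peak width, by the peak after control NT (left) and by the donor MEF peak (right), with 95% Wilson intervals. The left bars go from 47.5% in the narrowest class to 8.94% in the widest, and the right bars from 42.2% to 14.0%.

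A few control-only sites nevertheless had wide peaks after NT. The widest peak after NT covered chr17:83547655-83548721 (1067 bp), on a donor peak of 806 bp and a C2C12 peak of 841 bp, and the nearest Toca1 peak was 114309 bp away. On chromosome 11, the peak after NT at chr11:11708619-11709511 (893 bp) lay almost exactly on the donor peak (884 bp, of which 859 bp were shared) and on a C2C12 peak of 834 bp, with the nearest Toca1 peak at 122144 bp. The site at chr14:99445208-99445882 had a peak of 877 bp after NT and a C2C12 peak of 1202 bp. That at chr5:134789294-134789739 had a peak of 806 bp after NT and 783 bp in C2C12 cells. These 4 sites are not boundary cases of the rule, since their nearest Toca1 peaks lay 30845 to 122144 bp away. The peak of 1064 bp on chromosome 2 was of another kind: it touched its donor peak (250 bp wide) over 77 bp, and the same peak after NT also touched a Toca1 peak. The Toca1 peak nearest to that donor peak was 369 bp away.

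The widest donor peaks among the control-only sites are described next; sites chosen for a wide donor peak will tend to have narrower partners in another list, and peaks after NT were narrower in general (median 291 bp against 399 bp over the whole lists). The widest of all, 1403 bp at chr14:76954854-76956256, had a peak of 254 bp after NT and a Toca1 peak 409 bp away. It lay next to the placed start of Serp2, a small protein of the endoplasmic reticulum membrane. The second, 1212 bp at chr11:86399919-86401130, had a peak of 190 bp after NT. The third, 1198 bp at chr4:135841119-135842316, and the fifth, 1182 bp at chr9:85642252-85643433, had peaks of 735 and 690 bp after NT. The fourth, also of 1182 bp, at chr1:157882715-157883896, had a peak of 339 bp after NT, of which 243 bp lay on the donor peak. Of these 5 donor peaks, those on chromosomes 4, 1 and 9 met 2 separate C2C12 peaks each.

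The centres of the donor peak and the peak after NT lay a median of 91 bp apart at control-only sites (quartiles 38 and 171 bp) and 89.5 bp apart at sites of all 4 lists, with a difference of 1.5 bp (95% interval -8.81 to 10.4 bp). When overlap of 50% in both directions was asked, the difference was -8 bp (interval -16.5 to -0.618 bp). The peak after NT lay wholly inside the donor peak at 46.1% of control-only sites and at 45.3% of sites of all 4 lists (difference 0.735 percentage points, interval -3.04 to 4.53). It covered a median of 56.9% of the donor peak, against 63.4%, so that less of the donor peak was covered at control-only sites. The peak after NT itself reached a C2C12 peak at 869 of the 879 sites (98.9%) and at 99.5% of the sites of all 4 lists. The rule sets most of this, since both peaks had to overlap the same donor peak. The 879 sites were met by 875 distinct peaks after NT, and 4 sites held 2 peaks after NT.

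For most control-only sites no Toca1 peak was near. The nearest one lay a median of 21948 bp away (quartiles 8469 and 55271 bp), and 728 of 879 sites had none within 5000 bp. A Toca1 peak lay within 5000 bp of the remaining 151 (17.2%, interval 14.8% to 19.8%), against 29.4% of all donor peaks when overlapping peaks are counted, and against 13.3% of the shared donor peaks found in neither NT list, which lack a Toca1 peak as well. Within 500 bp the shares were 8.99% (79 sites) and 4.06%, given as a description because the Toca1 list is part of the rule. In each of the 4 classes of donor width, cut at the quartiles of the control-only sites, the share within 500 bp was higher at the control-only sites, from 13.6% against 4.96% in the narrowest class to 5.91% against 2.2% in the widest. At 17 sites (1.93%) the peak after NT itself touched a Toca1 peak that missed the donor peak. The plot of distances shows both curves.

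**Figure D3:**
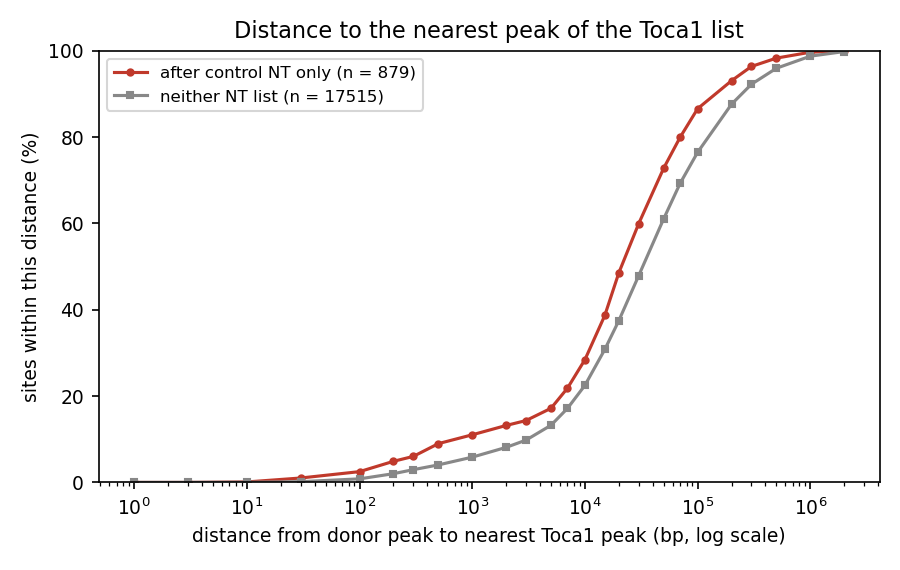
Cumulative share of sites (y axis, %) with a Toca1 peak within a given distance of the donor peak (x axis, bp, log scale) for the 879 control-only sites and the 17515 shared sites in neither NT list. The control-only curve is higher at 500 bp (8.99% against 4.06%), at 5000 bp (17.2% against 13.3%) and at 50000 bp (72.8% against 61.1%).

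The sites farthest from any Toca1 peak lay in long stretches without a call in that list. At chr14:115439957-115440274 the nearest Toca1 peak was 1884338 bp away, while the donor peak was 318 bp, the peak after NT 410 bp and the C2C12 peak 820 bp wide, and the C2C12 list from 1000 cells held a peak too. At chr17:59152459-59152910 the distance was 1737337 bp, with a peak of 393 bp after NT and of 383 bp in C2C12 cells. At chr10:26492018-26492431 it was 1302139 bp, with a peak of 257 bp after NT and of 1142 bp in C2C12 cells, and the 1000-cell list again held a peak. The next were chr6:25758938-25759529 (852786 bp) and chr9:19426214-19426909 (837261 bp), with peaks of 468 and 539 bp after NT. In these 5 sites the centres of the donor peak and the peak after NT were 3.5 to 66.5 bp apart.

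Along the genome the control-only sites were spread over all 20 chromosomes, from 10 sites on chromosome 18 to 72 on chromosome 2. Their share of the retained shared sites lay between 20.5% (chromosome 14) and 29.9% (chromosome 7) on 18 of the 19 autosomes. On chromosome 18 it was 10 of 98 (10.2%, interval 5.64% to 17.8%), and on chromosome X it was 25 of 50 (50.0%, interval 36.6% to 63.4%). All autosomes together gave 24.2% (interval 22.9% to 25.7%). Chromosomes 18 and X were singled out after the values of all 20 had been seen. The sex of the donor embryos is not in the labels.

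**Figure D4:**
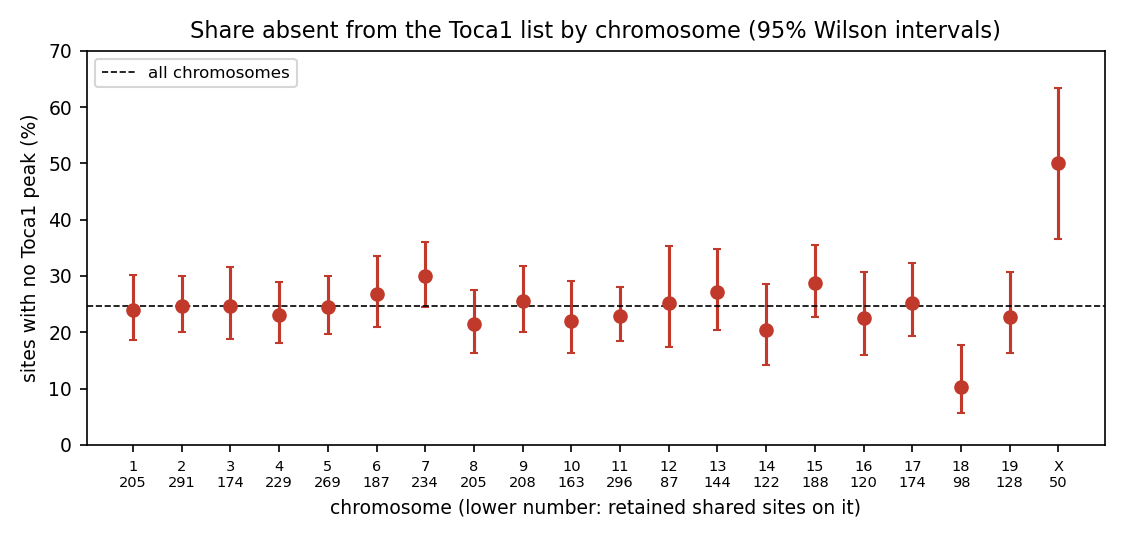
Share of the retained shared sites on each chromosome that had no Toca1 peak (y axis, %), with 95% Wilson intervals; the number under each chromosome (x axis) counts its retained shared sites, and the dashed line is the share over all chromosomes (24.6%). Chromosome 18 (10.2%) lies below the line and chromosome X (50.0%) above it with their whole intervals.

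Most control-only sites had no other control-only site within 10000 bp. The median distance from one to the next nearest was 499070 bp, 48 had another within 10000 bp and 26 within 1000 bp. No expected distance for as many sites was computed, so these values do not show whether the sites lie apart or together. The nearest other retained shared site lay a median of 102130 bp from control-only sites and 114172 bp from sites of all 4 lists. The nearest other retained shared site was a control-only site for 28.3% of them (interval 25.4% to 31.4%) and for 23.6% of the sites of all 4 lists (interval 22.0% to 25.2%). These intervals treat sites as independent, although neighbours can be each other's nearest site and some share the same peak after NT. The intervals may thus be too narrow to set the shares apart. The next donor peak lay a median of 9411 bp from control-only sites and 9177 bp from sites kept with Toca1 only. It lay 8225 bp from sites in neither NT list and 12673 bp from sites of all 4 lists, the largest median. Another donor peak within 1000 bp was most frequent at sites kept with Toca1 only (24.2%). The share was 19.1% at control-only sites, 17.9% at sites of all 4 lists and 17.6% at sites in neither NT list.

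The C2C12 list from 1000 cells was not used by the rule. It overlapped 118 of the 879 control-only sites (13.4%, interval 11.3% to 15.8%), against 6.03% of all donor peaks and 8.44% of the 25562 donor peaks that a C2C12 peak from 50000 cells also overlapped. With 34771 peaks, against 52697 in the 50000-cell list, it thus met few of the donor peaks that the larger list of the same line met. The reason was not tested, and this poor agreement of called peaks limits what the 1000-cell list can show. The paper compared reads around gene starts instead, and there its samples of 1000 and 50000 cells clustered together. That list overlapped 20.1% of the sites of all 4 lists, 12% of the sites kept with Toca1 only and 5.50% of the shared sites found in neither NT list. The difference between control-only sites and sites of all 4 lists was -6.63 percentage points (95% interval -9.24 to -3.80), and the share was lower at control-only sites on 16 of 20 chromosomes. Within classes of donor width the shares were 8.64% against 10.6% and 13.8% against 12.9% in the narrower classes, and 14.4% against 20.8% and 16.8% against 26.2% in the wider ones. Intervals of the classes were apart only among the widest donor peaks, with an upper limit of 22.3% against a lower limit of 23.7%. When a reciprocal overlap of at least 50% was asked in every comparison, it was -1.59 points and its interval (-4.31 to 1.27) included 0.

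The widest donor peaks that the 1000-cell list also held are sites called in each somatic list and after control NT. At chr4:142751547-142752572 the donor peak was 1026 bp, the C2C12 peak 1063 bp and the peak after NT 750 bp wide, and the nearest Toca1 peak lay 67822 bp away. At chr2:112332988-112334027 the widths were 1040, 1617 and 390 bp, and the nearest Toca1 peak lay 37654 bp away. The sites at chr13:54890307-54891439, chr9:108208225-108209249 and chr6:31038184-31039124 had donor peaks of 1133, 1025 and 941 bp and peaks of 254, 337 and 238 bp after NT. In 4 of these 5 sites the peak after NT was under 400 bp, as it was at most of the 879 sites (median 326 bp).

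**Figure D5:**
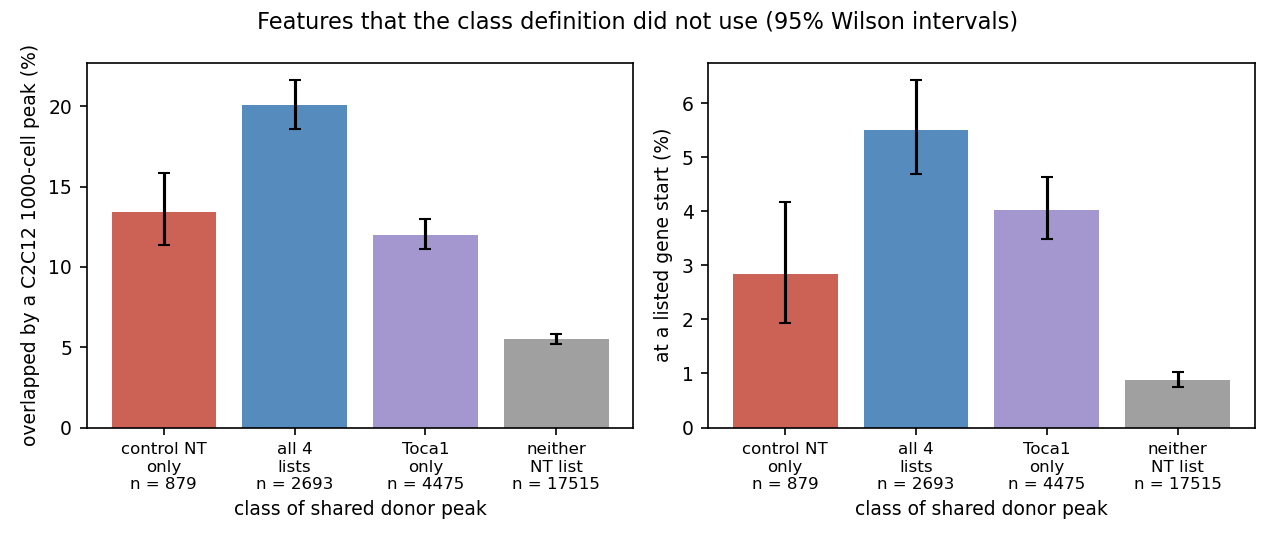
Share of shared donor peaks (y axis, %) overlapped by a C2C12 peak from 1000 cells (left) and lying at a placed gene start (right) in the 4 classes of shared donor peaks (x axis), with 95% Wilson intervals. Control-only sites (13.4% and 2.84%) lie below sites of all 4 lists (20.1% and 5.50%) and above sites in neither NT list (5.50% and 0.879%).

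Gene starts were compared between the classes only with the study's intergenic peaks, whose list is complete. A start so placed lay within 500 bp of 25 control-only sites (2.84%, interval 1.93% to 4.16%) and of 148 sites of all 4 lists (5.50%, interval 4.70% to 6.42%). The difference was -2.65 percentage points (95% interval -3.95 to -1.11). Sites kept with Toca1 only were at 4.02% and sites in neither NT list at 0.879%. By class of donor width the control-only sites at a start numbered 5, 6, 12 and 2, with shares of 2.27% against 5.29%, 2.76% against 4.91%, 5.41% against 5.97% and 0.909% against 5.54% from the narrowest to the widest. The intervals overlapped in each class but the widest. These shares are not shares of promoters, because the starts of most genes were not placed, and the starts come from genes near peaks that opened after NT. Some of the placed starts may also be false, in any class.

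The 38 genes placed at control-only sites had varied functions. Roles are given for some of them, and those with donor peaks under 493 bp were chosen for naming after their values had been seen. Ubiquitin ligases and their subunits were Rnf7 (donor peak 249 bp, peak after NT 323 bp), Itch, a HECT ligase (439 and 566 bp), Herc1, a giant HECT-domain protein (628 and 217 bp), and Znrf3, which removes Frizzled receptors from the membrane (384 and 287 bp). Those of Rnf7 and Herc1 were the sites of the 38 also called in C2C12 cells from 1000 cells.
Genes of RNA processing and translation were Rpl11 (620 and 268 bp), Cstf3 (684 and 237 bp) and Snrnp48, a protein of the minor spliceosome (296 and 384 bp). Actin regulators were Jmy (443 and 382 bp) and Lrrc16a, now Carmil1, which binds capping protein (568 and 636 bp). In the secretory pathway were Pdia6 (449 and 382 bp) and Qsox2, a sulfhydryl oxidase (610 and 404 bp). So were A4galt (749 and 313 bp) and Hs3st3b1, a heparan sulfate sulfotransferase (459 and 400 bp). Rab4a is a GTPase of recycling endosomes (427 and 308 bp).
Genes of signalling and protein transport were Rgs3, a regulator of G-protein signalling (560 and 300 bp), Ppp4r1, a regulatory subunit of protein phosphatase 4 (729 and 196 bp), and Unc119b, a carrier of lipid-modified proteins (410 and 269 bp). Genes known mainly from specialised cells were also among them: Gabbr1, a GABA-B receptor subunit (563 and 300 bp), Syn3, a synapsin (548 and 269 bp), Ctnna3, an alpha-catenin of heart and testis (430 and 401 bp), and Mafa, a transcription factor of pancreatic beta cells (786 and 474 bp).
The other genes among the 20 with the widest donor peaks were Ankrd13d (615 and 425 bp), Ccdc167 (514 and 480 bp), Zmynd12 (510 and 199 bp), 4930505A04Rik (501 and 204 bp), the zinc finger genes Zfp365 (556 and 180 bp) and Zfp11 (493 and 203 bp), and the long noncoding RNAs 2700046G09Rik (615 and 298 bp) and 2210406O10Rik (576 and 565 bp).
For Gabbr1, Mafa and Ctnna3 the placed start, which may be on the wrong side of its listed peak, lay outside the donor peak but within 500 bp. The same held for Serp2, Lrrc16a, Ppp4r1, Znrf3, Zmynd12 and 2700046G09Rik. Over the 38 sites the donor peak had a median width of 497 bp and the peak after NT of 304 bp (range 180 to 721 bp), and the nearest Toca1 peak lay a median of 20812 bp away.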

How the data were processed

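ATAC-seq peaks of 5 conditions were analysed. Per the submitters' processing notes, the deposited lists were made with Bowtie2 2.2.1, Picard and MACS2 2.1 on mm9; the role of each tool, filters and whether libraries were pooled before calling are not given in the sources used here. Each deposited file holds the chromosome, start and end of peaks at a false discovery rate of 0.01, with no count or score, assigned to its condition by list name. Starts were changed to 1-based. An overlap of 1 bp or more counted as shared. Where a donor peak met several partners, the one with the largest overlap gave the width. Shares have 95% Wilson intervals, medians order-statistic intervals, and differences combine these (Newcombe intervals for shares). No p-value was computed, since there is 1 list per condition.

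The rule, classes and lists of alternatives were chosen with earlier results of these data known. Named sites were the 5 widest donor peaks, the 5 widest peaks after NT, the 5 farthest from and 3 nearest to a Toca1 peak, the 3 with the smallest overlap with a peak after NT, and the 5 widest also in the 1000-cell list; of the genes, those at the 20 widest donor peaks, to which others were added after their values were seen. Gene starts were set at the distance from each newly opened peak that the study gives, on either side; of 252 genes listed for 2 or more peaks, 230 had 1 position that served them all within 2 bp. Genomic sequence of the sites in mm9 was not used here. The class code was tested on 4000 simulated donor peaks, of which 4000 were put in their class with 0 false members. Python 3.11.15, numpy 2.4.6, scipy 1.17.1, pandas 2.3.3, matplotlib 3.10.9 and bedtools 2.31.1 were used. The values of 1 gene are not reported here.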

Additional observations from a re-analysis of the deposited data

How the results depend on the processing

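Of 46 values recomputed under other settings, 34 stayed within the interval of the reported value, or within 1.5 times for the number of sites and 12 moved past it. None of the values moved when neighbouring peaks with gaps of 150 bp or less were merged, or when only autosomes were used. When narrower peaks than 250 bp were dropped, the share of retained shared sites with no Toca1 peak was 21.5%, the width difference after NT -69 bp and the share of control-only sites with a Toca1 peak within 5000 bp 13.4%. Asking for 50% overlap in both directions, the share without Toca1 was 40.0%, that with a Toca1 peak within 5000 bp 53.8%, that whose peak after NT touched a Toca1 peak 13.7%, and the difference in 1000-cell overlap -1.59 percentage points, with an interval that included 0. The centre offset difference changed sign there, from 1.5 to -8 bp, and its interval then excluded 0. Under this setting a site may overlap a Toca1 peak by less and still count as absent from that list. With peaks within 500 bp counted as shared, 10.3% had a Toca1 peak within 5000 bp, since the nearest ones are removed by construction. With the C2C12 list from 1000 cells in the rule, 124 sites met it, of which 118 were among the 879, 18.5% of the retained sites lacked Toca1 and 12.9% had a Toca1 peak within 5000 bp. Among peaks after NT at least 400 bp wide, 16.0% lacked Toca1. The cause of the other moves was not tested. The alternatives for gene starts were chosen after seeing the data. Leaving out a replicate could not be run, because each condition was deposited as a single list. No paired analysis was possible because the numbered libraries of a condition are in 1 list and no test was run. With no read numbers, a site missing from the Toca1 list cannot be told apart from one that was open but below its threshold.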
